A study of Mus musculus with 17 samples.

Results

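Metallothioneins and the transporters, storage proteins and receptors that handle zinc and iron were examined in mouse kidney. The set held 10 genes, chosen by symbol, of the 55487 gene identifiers in the deposited count table, and all 10 passed the filter on low counts. They were the metallothioneins Mt1 and Mt2, the zinc transporters Slc30a1 and Slc39a14, the ferritin subunits Fth1 and Ftl1, the iron uptake genes Tfrc and Slc11a2, and the iron export genes Slc40a1 and Heph.

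Kidney tissue of 9 db/db and 8 db/m males aged 16 weeks was compared, with 1 library per sample. Both groups came from the strain BKS.Cg-Dock7m +/+ Leprdb/J. The db/db animals, given as WT/HO, carry the Leprdb mutation of the leptin receptor on both chromosomes and become obese and diabetic, and the db/m animals, given as HE/HE, are lean carriers that also hold the coat colour allele Dock7m. Groups follow the sample titles, whereas the genotype field states the other genotype for all 17 samples. Were that field right, every direction below would turn round.

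Metallothioneins are small cysteine-rich proteins that bind zinc and copper, and their transcription is switched on by the zinc-sensing factor Mtf1 and by glucocorticoids. Ferritin stores iron, Tfrc and Slc11a2 bring it into the cytosol, and Slc40a1 (ferroportin) with the ferroxidase Heph lets it out. Kidney tubules reclaim both metals from the filtrate. Iron regulatory proteins bind a hairpin, the iron responsive element, in the mRNAs of several of these genes: in the 5′ UTR it holds back translation, and in the 3′ UTR of Tfrc it protects the mRNA from decay.

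Mt1 and Mt2 lie next to each other on chromosome 8. The 250 bases before their annotated starts are shown because the metal responsive element, the site that Mtf1 binds, was searched for there. Capitals mark the letters TGCACNC or TGCGCNC on either strand. The sequences are from RefSeq, build GRCm38.p6, plus strand, at chr8:94178839-94179088 for Mt1 and chr8:94172368-94172617 for Mt2.
Mt1: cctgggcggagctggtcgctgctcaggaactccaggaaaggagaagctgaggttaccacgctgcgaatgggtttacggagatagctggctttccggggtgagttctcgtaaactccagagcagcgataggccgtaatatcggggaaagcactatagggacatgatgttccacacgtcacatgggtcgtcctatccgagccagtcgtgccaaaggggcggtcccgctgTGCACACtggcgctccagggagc
Mt2: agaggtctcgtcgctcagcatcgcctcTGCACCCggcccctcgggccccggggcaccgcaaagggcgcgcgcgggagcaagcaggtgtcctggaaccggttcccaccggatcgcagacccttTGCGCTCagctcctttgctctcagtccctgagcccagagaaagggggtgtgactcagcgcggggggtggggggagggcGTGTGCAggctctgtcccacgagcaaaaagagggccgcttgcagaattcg
The Mt1 stretch held 1 match and the Mt2 stretch 3. Of all 32851 RefSeq windows, 21.4% held at least 1 match in the same 250 bases and 1.26% held at least 3. The zinc exporter Slc30a1 had 1 match in the same 250 bases. The iron uptake gene Tfrc had 2 matches, which overlap, at chr16:32608646-32608895 and 0 at chr16:32608872-32609121. Fth1 and Ftl1 had 0. RefSeq windows were matched for 6 of the 10 genes; the others are Slc39a14, Slc40a1, Slc11a2 and Heph.

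In the annotated transcripts that begin farthest upstream (GENCODE M21, build GRCm38), the 5′ UTR of Mt1 held 4 further matches and that of Mt2 held 3. All of these lie before a TATAAA sequence, which starts at base 129 in Mt1 and at base 90 in Mt2. The 30-base stretches with 2 matches each are at chr8:94179089-94179118 for Mt1 and chr8:94172674-94172703 for Mt2, plus strand, with the matching letters in capitals.
Mt1: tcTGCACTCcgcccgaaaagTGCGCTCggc
Mt2: gcGTGTGCAggcggcgggggcGCGTGCAtg
These letters are a description of the annotated sequence. Binding was not measured.

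For the iron genes, the hairpin was searched for as a C, any 5 bases and then CAGTGN, with the 5 bases on each side of CAGTGN able to pair, G with T allowed. It occurred in at least 1 transcript of 294 of 21877 protein-coding genes (1.34%). Of the 10 genes, 4 held it. The 30-base sites are shown with the loop in capitals, in the sense of the mRNA, from GENCODE M21 transcripts (build GRCm38). Fth1 has its site at chr19:9982732-9982761 (plus strand), Ftl1 at chr7:45459778-45459807 (minus strand) and Slc40a1 at chr1:45925464-45925493 (minus strand), all in the 5′ UTR. Tfrc has 4 in its 3′ UTR on the plus strand of chromosome 16, at chr16:32631219-32631248, chr16:32631598-32631627, chr16:32631663-32631692 and chr16:32631710-32631739.
Fth1: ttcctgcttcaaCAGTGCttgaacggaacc
Ftl1: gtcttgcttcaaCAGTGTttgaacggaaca
Slc40a1: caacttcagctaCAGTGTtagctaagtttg
Tfrc site 1: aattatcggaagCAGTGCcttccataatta
Tfrc site 2: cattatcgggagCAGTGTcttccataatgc
Tfrc site 3: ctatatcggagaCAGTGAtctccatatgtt
Tfrc site 4: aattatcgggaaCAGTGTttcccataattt
No match was found in the annotated transcripts of Slc11a2, which says only that these letters are not there.

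Gene counts per library ran from 3256427 to 7627747, and mitochondrially encoded genes took 22.02% to 30.6% of them. Levels are given as CPM, the counts scaled to a common library size (TMM scaling). Kidney markers were present: megalin (Lrp2), a proximal tubule receptor, averaged 671 CPM in db/db and 948 CPM in db/m. The 7 proximal tubule markers, Lrp2 among them, summed on average to 7018 CPM in db/db and 7482 CPM in db/m. The liver markers Alb, Apoa1 and Ttr summed to 8.90 to 48.9 CPM in db/db and 6.74 to 19.8 CPM in db/m. The library of db/db replicate 8 stood apart, at 79.2 on the first principal component, where the other 16 lay between -44.3 and 43.1, and with the lowest mitochondrial share. It held the lowest level of 20.1% of the 12131 tested genes and the highest level of 19.3%. On the second component, which held 16.5% of the variance, db/db replicate 4 lay farthest out, at -44.6. There the db/m libraries had positive values and the db/db libraries negative ones. The exceptions were db/m replicate 8 (-3.63) and db/db replicate 8 (16.1).

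The comparison asks which of these transcripts differ between diabetic and lean kidneys. Mt1 was the only member of the set called by edgeR's quasi-likelihood test at a Benjamini-Hochberg adjusted p under 0.05 over all 12131 tested genes. Of all tested genes 7.39% were called, 3.91% higher and 3.49% lower in db/db, so 1 of 10 is close to that background. DESeq2, which called 9.52% of all genes, also called only Mt1 of the 10. The CPM values of the groups overlapped for all 10 genes; over all tested genes the groups did not overlap for 1.78%. The median log2 fold change over all tested genes was 0.0033.

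**Figure D1:**
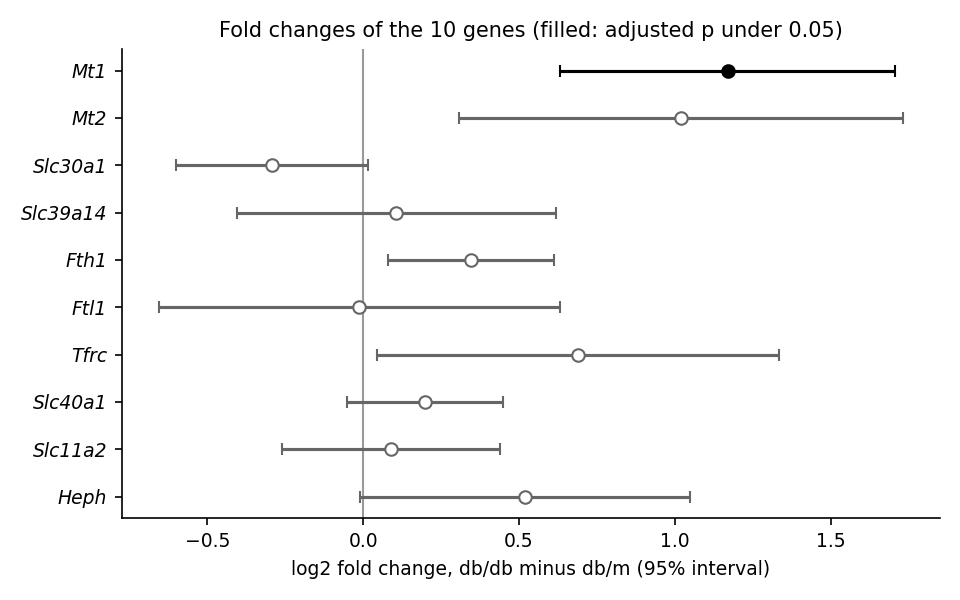
Log2 fold change of each gene, db/db minus db/m, with its 95% interval from edgeR over 9 db/db and 8 db/m libraries. Mt1, filled, lies at 1.17; the intervals of Mt2, Fth1 and Tfrc also lie above 0, but their p-values did not pass adjustment over all genes.

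Mt1, which had the most counts of the metallothioneins, rose 2.25-fold in db/db kidneys (95% interval 1.55 to 3.27). Across animals the lowest, median and highest levels were 280, 583 and 1336 CPM in db/db, against 199, 267 and 409 CPM in db/m. In db/db 6 of 9 animals lay above the highest db/m animal, while replicates 1, 6 and 9 (314, 280 and 369 CPM) lay within the db/m range. The mean was 632 ± 330 CPM in db/db and 281 ± 74.9 CPM in db/m (SD, n = 9 and 8). The log2 fold change was 1.17 (SE 0.26), with an edgeR quasi-likelihood adjusted p of 0.0063. The gene was called in all 17 fits that left out 1 library, at 0.95 without db/db replicate 4, where it was highest, up to 1.28.

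Mt2, the neighbouring gene whose protein binds the same metals, had a fold of similar size with a wider spread. The animals' lowest, median and highest levels were 49.3, 96.2 and 451 CPM in db/db, against 36.1, 70.9 and 84.3 CPM in db/m. Again 6 of 9 db/db animals lay above the db/m range, and db/db replicate 4 stood far above the rest: the next highest, replicate 7, was at 162 CPM. The log2 fold change was 1.02 (SE 0.34; edgeR quasi-likelihood adjusted p = 0.0759), and so was not called. Without db/db replicate 4 it was 0.53 (adjusted p = 0.165). Mt2 was called without db/db replicate 6 (adjusted p = 0.0385) and without db/db replicate 8 (adjusted p = 0.0478).

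**Figure D2:**
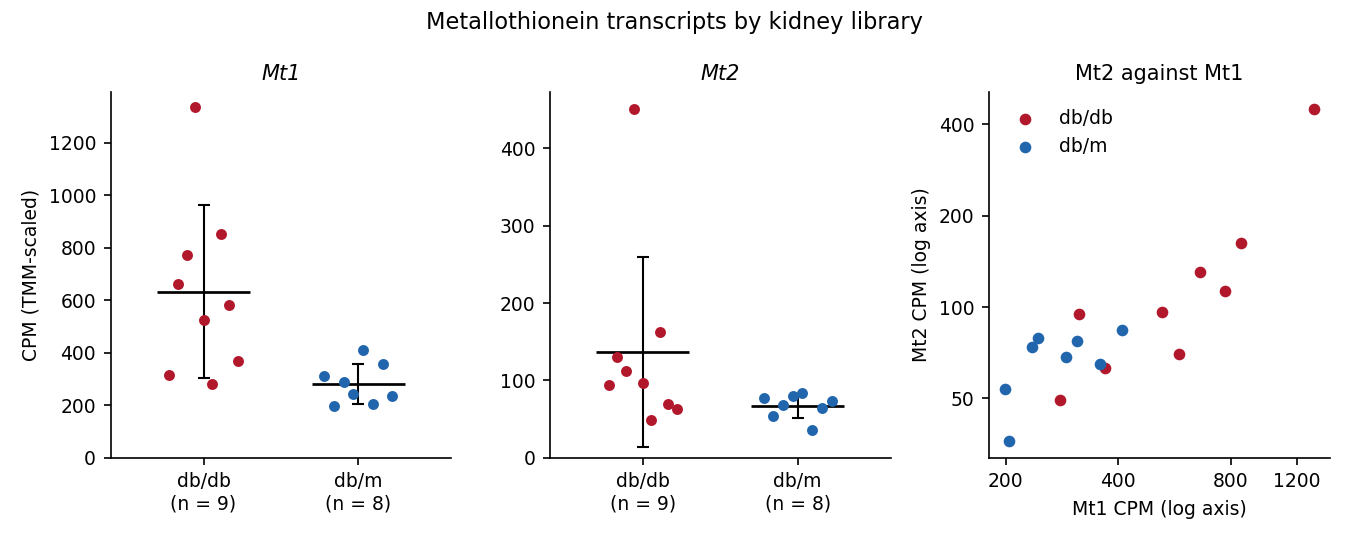
Left and middle: Mt1 and Mt2 in CPM for each library of db/db (n = 9) and db/m (n = 8), with mean and SD as lines and bars; 6 of 9 db/db libraries lie above all db/m libraries in both. Right: Mt2 against Mt1 on log axes, where db/db replicate 4 is the highest point, at 1336 and 451 CPM.

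Among the animals of a group, Mt1 and Mt2 were set against each other on the log2 CPM scale. Pearson's r was 0.872 in db/db (exact permutation p = 0.0014, two-sided, adjusted p = 0.0115; rho = 0.90, p = 0.0020, adjusted p = 0.0162; n = 9). It was 0.635 in db/m (exact permutation p = 0.0809, adjusted p = 0.129; rho = 0.619, p = 0.115, adjusted p = 0.212; n = 8). Adjustment was over 8 relations, 4 pairs of genes in 2 groups. Without db/db replicates 4 and 6, the libraries farthest from the median of Mt1, r in db/db was 0.678 (exact permutation p = 0.0954, adjusted p = 0.25, n = 7). With fewer animals and a narrower range of Mt1, this cannot show whether the relation rests on those animals. Without db/m replicates 5 and 7, r in db/m was 0.692 (exact permutation p = 0.125, n = 6).

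The other metallothioneins were near or at the limit of detection. Mt3, known from the brain, had 31 counts over the db/db libraries and 29 over the db/m libraries. Mt4, known from stratified epithelia, had 0 counts in every library, which allows a level of up to 0.393 to 0.921 CPM before TMM scaling, depending on the library (3 counts of its total, counting error only). Mtf1, the factor that senses zinc, averaged 17.8 CPM in db/db and 18.6 CPM in db/m (log2 fold change -0.07, SE 0.15, edgeR adjusted p = 0.844). Mtf2 lay at 0.18 (SE 0.12, edgeR adjusted p = 0.392).

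Of the zinc transporters, Slc30a1 (ZnT1) moves zinc out of the cell and is itself a known Mtf1 target. Its lowest, median and highest levels were 28.8, 57.4 and 76.3 CPM in db/db, against 54.1, 68.3 and 76.2 CPM in db/m. The lowest value was that of db/db replicate 8, and 4 of 9 db/db animals lay below the db/m range while 1 lay above it. The difference on the log2 scale was -0.29, with an SE of 0.15 and a 95% interval of -0.60 to 0.02 (edgeR adjusted p = 0.263). Mt1 and this exporter thus had estimates of opposite sign; the difference between them was not tested.

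Slc39a14 (ZIP14) carries zinc, and also iron not bound to transferrin, into the cell. Levels had a lowest, median and highest value of 5.57, 9.79 and 22.6 CPM in db/db, against 7.55, 10.9 and 14.1 CPM in db/m. The groups had near medians, and the db/db animals reached beyond the db/m range at both ends, 2 above and 2 below. The difference on the log2 scale was 0.11, with an SE of 0.25 and a 95% interval of -0.40 to 0.62 (edgeR adjusted p = 0.855). Its sign turned in 2 of the 17 fits that left out 1 library, and the difference was -0.065 without db/db replicate 4. Its r with Mt1 was 0.247 in db/db (exact permutation p = 0.518, adjusted p = 0.690; rho = 0.167, p = 0.678, adjusted p = 0.775; n = 9) and -0.0965 in db/m (exact permutation p = 0.817, adjusted p = 0.817; rho = -0.119, p = 0.793, adjusted p = 0.793; n = 8). Without the 2 libraries farthest from the median of Mt1, it was -0.298 in db/db (exact permutation p = 0.516, n = 7) and -0.0396 in db/m (exact permutation p = 0.931, n = 6).

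Ferritin is built of heavy (Fth1) and light (Ftl1) subunits, and the heavy one oxidises iron for storage. Fth1 had 1395, 2509 and 3359 CPM as lowest, median and highest in db/db, against 1721, 1931 and 2131 CPM in db/m. All db/db animals but replicate 8 lay above the whole db/m range, and replicate 8 lay below it. The mean was 2473 ± 537 CPM in db/db and 1946 ± 129 CPM in db/m (SD, n = 9 and 8). The fold was 1.27 (95% interval 1.06 to 1.53; log2 fold change 0.35, SE 0.13), which was not called (edgeR adjusted p = 0.113). Without db/db replicate 8 the log2 fold change was 0.42 and the gene was called (adjusted p = 0.0063).

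Ftl1, the light subunit, had an estimate near 0 with a wide interval. Its lowest, median and highest levels were 22.6, 238 and 417 CPM in db/db, against 151, 237 and 349 CPM in db/m. The medians were near each other, and db/db replicate 8, with 109 counts, lay below all other libraries; the next lowest db/db level was 185 CPM. The difference on the log2 scale was -0.01, with an SE of 0.31 and a 95% interval of -0.66 to 0.63 (edgeR adjusted p = 0.987). Its sign turned in 6 of the 17 fits that left out 1 library. Without db/db replicate 8 it was 0.14 (edgeR adjusted p = 0.669). Ferritin genes have processed copies in the genome, among which counting could split or drop reads. The copy Ftl1-ps1 had 3 counts over db/db and 1 over db/m, which does not show whether reads of Ftl1 were dropped.

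Within groups, the r of Fth1 with Ftl1 was 0.849 in db/db (exact permutation p = 0.0291, adjusted p = 0.0582; rho = 0.55, p = 0.133, adjusted p = 0.212; n = 9). It was 0.821 in db/m (exact permutation p = 0.0136, adjusted p = 0.0364; rho = 0.667, p = 0.0831, adjusted p = 0.212; n = 8). Without db/db replicates 7 and 8, the 2 libraries farthest from the median of Fth1, r in db/db was 0.776 (exact permutation p = 0.0409, adjusted p = 0.25, n = 7). Replicate 8 had the lowest db/db level of both genes. In db/m, without replicates 2 and 7, r was 0.408 (exact permutation p = 0.442, adjusted p = 0.689, n = 6). With fewer animals and a narrower range of Fth1, these values cannot show whether either relation rests on the animals left out.

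Tfrc, the receptor that takes up transferrin-bound iron, varied widely in both groups. Its lowest, median and highest levels were 23.8, 59.9 and 149 CPM in db/db, against 27.0, 43.9 and 76.7 CPM in db/m. In db/db 4 of 9 animals, replicates 4, 5, 6 and 7, lay above the db/m range, and replicate 9 lay below it. The fold was 1.61 (95% interval 1.03 to 2.52; log2 fold change 0.69, SE 0.31), which did not pass edgeR's adjustment (adjusted p = 0.205). On the log2 scale it lay between 0.50 and 0.83 in the 17 fits that left out 1 library and was called in none.

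Slc11a2 (DMT1), which carries ferrous iron and other divalent metals across endosomal and apical membranes, had 36.7, 60.1 and 83.6 CPM as lowest, median and highest in db/db. In db/m these were 42.3, 53.3 and 80.0 CPM. The ranges largely coincided, and the difference on the log2 scale was 0.09, with an SE of 0.17 and a 95% interval of -0.26 to 0.44 (edgeR adjusted p = 0.813). Its r with Tfrc was 0.789 in db/db (exact permutation p = 0.0129, adjusted p = 0.0364; rho = 0.80, p = 0.0138, adjusted p = 0.0553; n = 9) and -0.205 in db/m (exact permutation p = 0.636, adjusted p = 0.727; rho = -0.190, p = 0.665, adjusted p = 0.775; n = 8). The difference between the groups was not tested. Without the 2 libraries farthest from the median of Tfrc, r was 0.730 in db/db (exact permutation p = 0.0635, n = 7) and 0.153 in db/m (exact permutation p = 0.728, n = 6).

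Of the export genes, Slc40a1, the only known cellular iron exporter, had 17.4, 22.4 and 29.7 CPM as lowest, median and highest in db/db, against 14.1, 20.9 and 22.2 CPM in db/m. It was the steadiest of the 10 in db/db, with an SD of 14.7% of the mean there and 13.8% in db/m. In db/db 5 of 9 animals lay above the db/m range, and replicate 1 was highest. The difference on the log2 scale was 0.20, with an SE of 0.12 and a 95% interval of -0.05 to 0.45 (edgeR adjusted p = 0.360). Macrophages also express this gene. Their 9 markers summed to 75.7 to 226 CPM in db/db and 130 to 264 CPM in db/m. None of the 6 tested was called, but all 6 estimates were below 0, with a median log2 fold change of -0.45. The part of macrophages in the result was not tested.

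Heph, which oxidises iron as it leaves the cell, had the fewest counts of the set, 296 over db/db and 187 over db/m. Its lowest, median and highest levels were 3.69, 6.96 and 9.83 CPM in db/db, against 2.46, 4.40 and 10.3 CPM in db/m. The highest animal of all was db/m replicate 8, while the other 7 db/m animals were at 5.44 CPM or below. The log2 fold change was 0.52 (SE 0.25; edgeR adjusted p = 0.248), and without db/m replicate 8 it was 0.78 and called (adjusted p = 0.0408). That animal also had the highest sum of the 5 fat cell markers, 165 CPM, where the other db/m libraries ran from 0.231 to 53.1 CPM and db/db libraries from 0.619 to 112 CPM. Their part in the result was not tested.

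**Figure D3:**
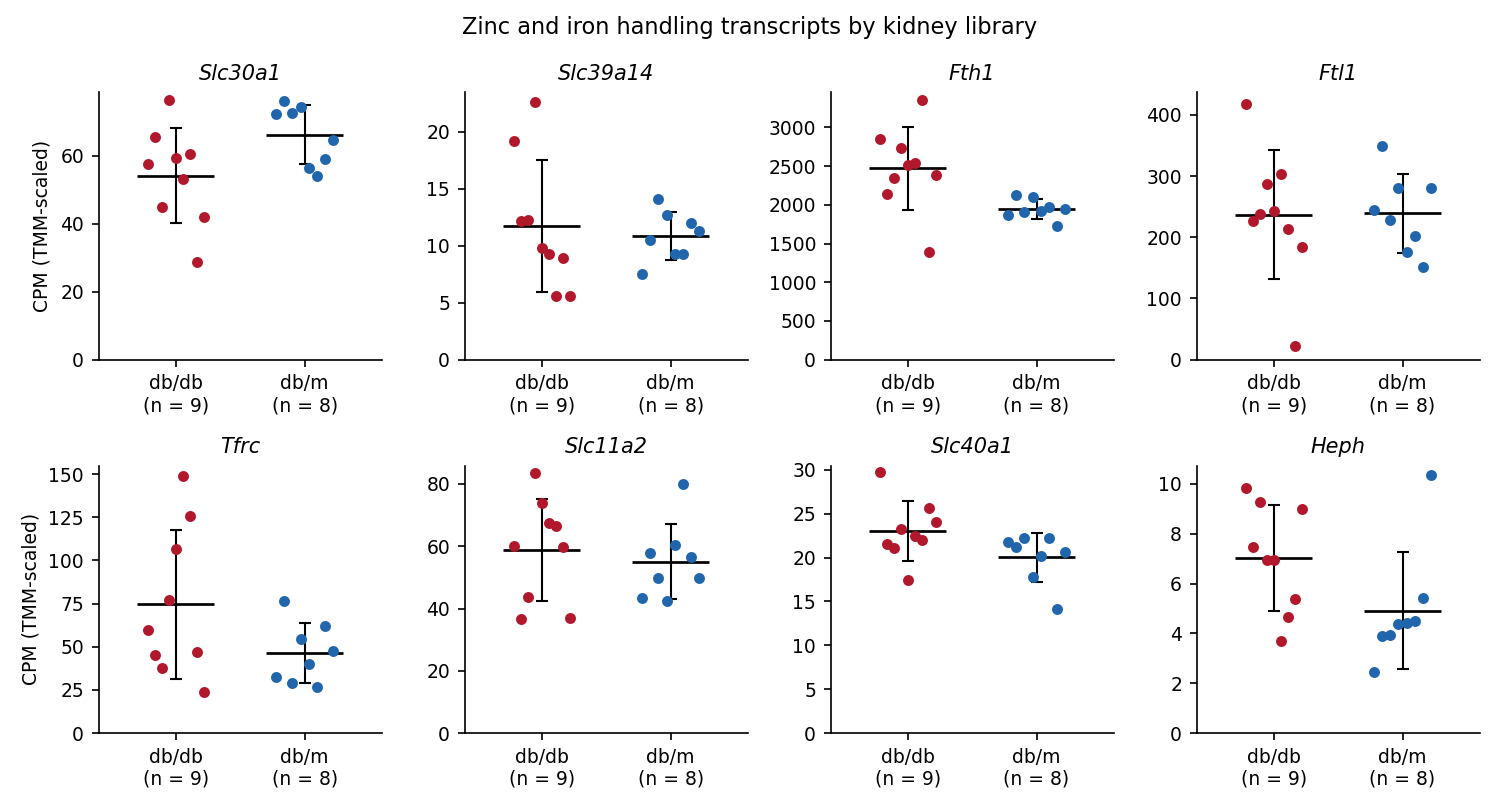
CPM of the zinc and iron handling genes in each library of db/db (n = 9) and db/m (n = 8), with mean and SD as lines and bars. The groups overlap in every panel; db/db replicate 8 is the low db/db point for Fth1 (1395 CPM), Ftl1 (22.6 CPM) and Slc30a1 (28.8 CPM).

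Markers of some cell types differed between the groups, and those of others did so less or in both directions. In bulk tissue, fewer cells of a type and less RNA per cell cannot be told apart. Proximal tubule segment S3 had 6 markers, which summed to 1370 to 2120 CPM in db/db and 2696 to 3116 CPM in db/m, with 5 lower and 1 higher in db/db. The 5 markers of the distal convoluted and connecting tubule summed to 1662 to 2968 CPM in db/db and 1009 to 1564 CPM in db/m, with 4 higher. Principal cell markers summed to 631 to 1593 CPM in db/db and 260 to 891 CPM in db/m, with 3 of 5 higher. Intercalated cell markers summed to 156 to 233 CPM in db/db and 128 to 160 CPM in db/m, with 3 of 5 higher. Podocyte markers summed to 152 to 226 CPM in db/db and 116 to 177 CPM in db/m, with 2 of 5 higher. The 6 markers of red blood cells summed to 1204 to 7855 CPM in db/db and 1940 to 3882 CPM in db/m, with Slc4a1, which intercalated cells also express, higher. The highest of these sums was that of db/db replicate 9, and the next db/db library, replicate 3, was at 3651 CPM. General proximal tubule markers summed to 5994 to 7795 CPM in db/db and 6335 to 8351 CPM in db/m. Of these 7 markers 1 was higher and 1 lower. Thick ascending limb markers summed to 1114 to 2834 CPM in db/db and 1651 to 3529 CPM in db/m. Of these 5 markers 1 was higher and 1 lower. Endothelium markers summed to 350 to 448 CPM in db/db and 364 to 467 CPM in db/m, with 0 of 5 called. No marker on these lists was at 0 in all libraries. Their part in the results on Mt1 and the other genes was not tested.

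Wider lists of zinc and iron genes were read in the same fit, against 7.39% of all genes called and a median log2 fold change of 0.0033. Of 7 tested zinc exporters edgeR called 0, DESeq2 called 0 and 0 had an unadjusted p under 0.05; all 7 estimates were below 0, with a median of -0.14. After Slc30a1 the smallest p was that of Slc30a2 (-0.14, SE 0.14, edgeR adjusted p = 0.626). Of 10 tested zinc importers, Slc39a5 (ZIP5) rose to 18.6 ± 6.07 CPM in db/db, against 10.1 ± 1.502 CPM in db/m (SD, n = 9 and 8; log2 fold change 0.88, SE 0.18, edgeR adjusted p = 0.0025). Slc39a8 (ZIP8), which carries zinc and manganese, fell to 6.55 ± 3.54 CPM in db/db, against 15.1 ± 4.28 CPM in db/m (log2 fold change -1.21, SE 0.32, edgeR adjusted p = 0.0216). Its call ended without db/m replicate 4 (adjusted p = 0.0501).

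Among 10 tested iron uptake genes 2 rose and 1 fell (median 0.14). Slc22a17, a receptor for the siderophore carrier lipocalin 2, fell to 17.2 ± 3.48 CPM in db/db, against 32.5 ± 4.99 CPM in db/m, with no overlap between the groups (log2 fold change -0.92, SE 0.13, edgeR adjusted p = 8.26e-05). Transferrin (Trf), the plasma iron carrier, rose to 19.7 ± 4.29 CPM in db/db, against 10.9 ± 4.47 CPM in db/m (0.85, SE 0.21, adjusted p = 0.0149). Steap2, which reduces iron and copper for uptake, rose by 0.43 (SE 0.10, adjusted p = 0.0093). Lrp2, which takes up metal-bound proteins, lay at -0.50 (SE 0.17, adjusted p = 0.0811).

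Of 6 tested iron sensing genes, Hfe, a partner of the transferrin receptor that is mutated in hereditary haemochromatosis, rose (0.83, SE 0.16, edgeR adjusted p = 0.0018; 15.2 CPM in db/db and 8.56 CPM in db/m). Fbxl5, which targets an iron regulatory protein for degradation when iron is plentiful, averaged 14.3 ± 4.50 CPM in db/db and 20.9 ± 2.95 CPM in db/m (SD, n = 9 and 8), with 8 of 9 db/db animals below the db/m range. Its log2 fold change of -0.55 (SE 0.17) was not called by edgeR (adjusted p = 0.0535) but was by DESeq2 (adjusted p = 0.0230). The iron regulatory proteins Aco1 (0.25, SE 0.20, adjusted p = 0.508) and Ireb2 (0.08, SE 0.10, adjusted p = 0.739) did not pass the test. Of 3 tested export genes, 5 storage genes, 8 heme genes, 19 mitochondrial iron and heme synthesis genes and 9 copper genes, edgeR called 0, with medians of 0.31, 0.13, 0.13, 0.06 and 0.02. Nearest to a call were Flvcr1, a heme exporter (0.72, SE 0.23, edgeR adjusted p = 0.0599), the copper chaperone Atox1 (0.44, SE 0.14, adjusted p = 0.0700) and Glrx5, of iron-sulfur assembly (0.25, SE 0.09, adjusted p = 0.0901). The other genes among the 2 smallest p-values of their list were Cp, a plasma ferroxidase (0.31, SE 0.14, edgeR adjusted p = 0.196), the iron chaperone Pcbp2 (0.15, SE 0.09, adjusted p = 0.344), the heme transporter Slc48a1 (0.35, SE 0.14, adjusted p = 0.127), mitoferrin 1 (Slc25a37; 0.32, SE 0.15, adjusted p = 0.220) and the copper pump Atp7a (0.22, SE 0.12, adjusted p = 0.301). Of these 44 genes 9 (20.5%) had an unadjusted p under 0.05, against 21.1% of all tested genes. DESeq2 called 3 of the 44, Flvcr1 (adjusted p = 0.0244), Glrx5 (adjusted p = 0.0281) and Atox1 (adjusted p = 0.0467).

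Lists of other signals known to act on these genes were read in the same way, against 7.39% of all genes called. They too were chosen with earlier results of these data known, so their counts of calls are a description. Of 8 tested glucocorticoid responsive genes 2 rose: Sgk1, a kinase of sodium transport (1.21, SE 0.27, edgeR adjusted p = 0.0061), and Zbtb16 (1.17, SE 0.31, adjusted p = 0.0227), which was not called without db/db replicate 9 (adjusted p = 0.0537). Per1 (0.84, adjusted p = 0.0710) was called by DESeq2 only (adjusted p = 0.0295). Errfi1 (-0.41, adjusted p = 0.122), Fkbp5 (0.69, adjusted p = 0.227), Klf9 (-0.23, adjusted p = 0.582), Tsc22d3 (0.13, adjusted p = 0.836) and Dusp1 (0.06, adjusted p = 0.941) did not pass edgeR's test. Of 8 hypoxia responsive genes, Pdk1 (1.07), Egln3 (0.77) and Adm (0.60) rose (edgeR adjusted p = 0.00012, 0.0017 and 0.0043), while Vegfa was at -0.42 (adjusted p = 0.106). Car9 lay at -1.17 (SE 0.53, edgeR adjusted p = 0.204). Bnip3 (0.09, adjusted p = 0.678), Slc2a1 (0.15, adjusted p = 0.683) and Ndrg1 (0.15, adjusted p = 0.700) did not pass edgeR's test either. Of 10 listed acute phase genes only 3 passed the filter on low counts, and the rest were not tested. Among these 3, Lcn2, which carries iron-binding siderophores, rose by 1.78 (SE 0.34, edgeR adjusted p = 0.0017), with 5.12 CPM in db/db and 1.42 CPM in db/m. Fgg rose by 1.44 (SE 0.31, edgeR adjusted p = 0.0055). Fga lay at -0.18 (SE 0.31, edgeR adjusted p = 0.801).

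**Figure D4:**
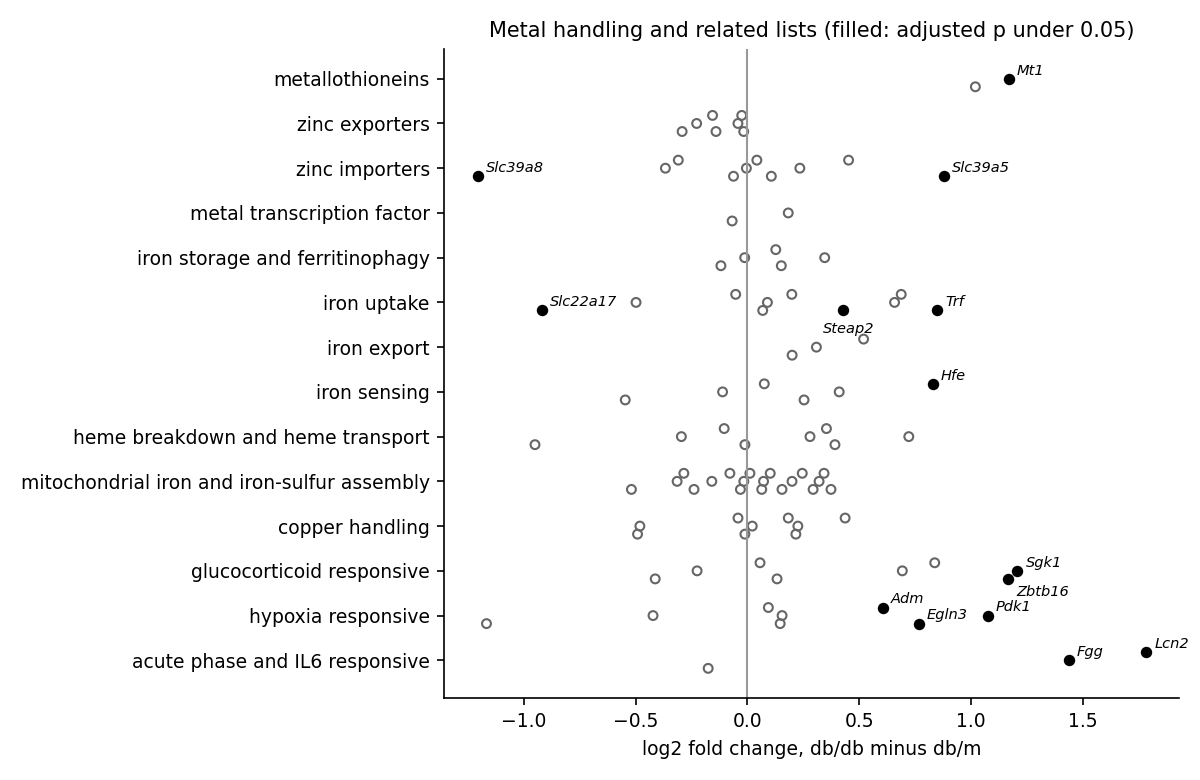
Log2 fold change of every tested gene on the metal handling and related lists, db/db minus db/m, 1 row per list and 1 point per gene; filled points passed an adjusted p of 0.05. The filled points of the zinc and iron lists are Mt1 (1.17), Slc39a5 (0.88), Slc39a8 (-1.21), Slc22a17 (-0.92), Trf (0.85), Steap2 (0.43) and Hfe (0.83).

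Genes with the most similar pattern were taken as the 3 with the highest Pearson r of log2 CPM over the 17 libraries after the mean of each group was subtracted, among 12130 genes. For Mt1 they included Mt2 (r = 0.832) and Fbxo6 (0.826). For Mt2 they were Ankrd50 (0.834), Mt1 (0.832) and 2410002F23Rik (0.820), at 0.824, 0.793 and 0.694 without db/db replicates 4 and 8. For Fth1 they were Klk1 (0.944), Mpc2 (0.937) and H2afx (0.935), at 0.863, 0.795 and 0.829 without db/db replicate 8. For Tfrc they were Mrps5 (0.854), Glrx5 (0.783), an iron-sulfur assembly protein, and Ermard (0.783). For Slc40a1 they were E330009J07Rik (0.755), Slc23a2 (0.742) and Cdk14 (0.737). All points share the libraries' depth and scaling.

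**Figure D5:**
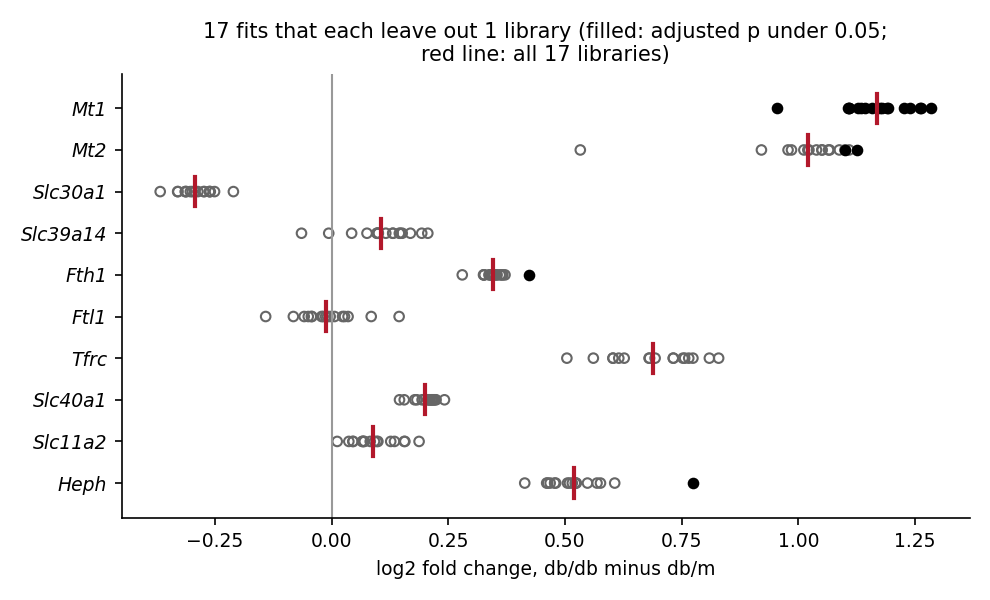
Log2 fold changes, db/db minus db/m, of the 10 genes in 17 fits that each left out 1 library (points; filled where adjusted p was under 0.05) and with all libraries (red line). Mt1 is filled in all 17 fits; Fth1 is filled only without db/db replicate 8, Heph only without db/m replicate 8, and Mt2 without db/db replicate 6 or 8.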

How the data were processed

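The deposited table held raw read counts per gene from 3′ tag sequencing (QuantSeq), which the authors produced; the submitters' processing notes name the aligner STAR (2.7.3a) and the counter HTSeq (2.16.2). The build and release of the mouse annotation were not given in the sources used here. The notes list a human build, whereas the gene identifiers are mouse. Reads on no gene were 19.3% of all and ambiguous reads 0.533%; both were left out.

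Genes were kept by edgeR's filterByExpr (minimum count 10), scaled by TMM and tested with edgeR 4.0.16 (limma 3.58.1, R 4.3.3) by the quasi-likelihood test, db/db against db/m with no covariate, and called at a Benjamini-Hochberg adjusted p under 0.05 over all tested genes. CPM are TMM-scaled, and log2 CPM used a prior count of 2. DESeq2 1.42.0 was an alternative. The code was tested on simulated data. Intervals are at 95%.

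The genes and lists were chosen with earlier results of these data known. Beyond the 10 genes, the text names each list's called genes, the 2 with the smallest p where none was called, and some chosen after their values were seen. 1 of the genes with a pattern similar to that of Mt1 is not reported here. Library numbers follow the groups, so that library order and genotype cannot be told apart. No label says that a library is a pool; the p-values measure the spread between these samples. Strand use in counting is not stated, so that Mt2, Slc30a1, Ftl1, Slc11a2 and Heph, which overlap other annotated genes, are uncertain by an amount that was not measured, and Mt1 and Mt2 are paralogs. Lepr does not check the genotype, since 3′ tags do not read the mutation. A protocol text speaks of cultured cells, while the tissue field says kidney.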

Additional observations from a re-analysis of the deposited data

Results flagged for a closer look

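In 34 named genes, each group's highest and lowest library was set against the gap that Dixon's 95% limit allows. Of 68 groups of values 3 went past it (4.41%), and chance passes about 5%. Mt2 in db/db replicate 4 was at 450.8 CPM, where the next highest db/db library was at 162 CPM. Heph in db/m replicate 8 was at 10.3 CPM, where the next highest db/m library was at 5.44 CPM. Atox1, a copper chaperone, in db/m replicate 5 was at 88.9 CPM, where the next highest db/m library was at 74.7 CPM.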

How the results depend on the processing

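In 17 fits that each left out 1 library, edgeR called 637 to 1237 genes (319 to 666 higher and 318 to 571 lower in db/db), against 897, 474 and 423 with all libraries, and 1 to 3 of the 10 genes. Log2 fold changes then ran from 0.53 to 1.12 for Mt2, 0.28 to 0.42 for Fth1, 0.41 to 0.78 for Heph, -0.065 to 0.21 for Slc39a14 and -0.14 to 0.14 for Ftl1. Mt1 was called in all 17 and under all 8 other alternatives, which were DESeq2, RLE and upper-quartile scaling, no filter, no mitochondrial genes, the robust option, the replicate block and the exclusion of db/db replicates 4 and 8. That exclusion was chosen after seeing the data. It gave 2 called genes of the 10, with Fth1 at 0.42, Ftl1 at 0.13, Slc39a14 at -0.032 and Slc11a2 at -0.0017. With the replicate block the calls were 435, of which 200 were higher and 235 lower. The replicate numbers do not pair the samples: same-numbered libraries had r between -0.454 and 0.212 over 8 pairs, 2 of them over 0.1, and 1 of 8 db/db libraries correlated best with its own number.

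Without the 2 libraries farthest from the median, r was 0.678 for Mt1 with Mt2 in db/db, 0.408 for Fth1 with Ftl1 in db/m, 0.730 for Tfrc with Slc11a2 in db/db and 0.153 in db/m, and -0.298 for Mt1 with Slc39a14 in db/db. On the CPM scale it was 0.819 for Fth1 with Ftl1 in db/m and 0.676 for Tfrc with Slc11a2 in db/db, both with an adjusted p above 0.05. The causes were not tested. Of 24 further genes named by rule, 15 kept their side of the threshold and their sign in every setting and 9 did not. With the replicate block Slc39a8, Trf, Sgk1, Zbtb16 and Fgg were not called (edgeR adjusted p = 0.138, 0.0734, 0.0535, 0.0541 and 0.0734).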

Other observations

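Among the 11 tested genes within 250 kb of Mt1 and Mt2 on chromosome 8, Mt1 and Mt2 included, edgeR called 2, against 7.39% of all tested genes. The 2 were Mt1 itself and Herpud1, a gene of the endoplasmic reticulum stress response (log2 fold change 0.37, SE 0.10, edgeR adjusted p = 0.0286). The other 9 had edgeR adjusted p-values of 0.0759 (Mt2) or above. Klk1, the kallikrein with the pattern most similar to that of Fth1, was itself higher in db/db (log2 fold change 0.58, SE 0.12, edgeR adjusted p = 0.0046).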
